A study of Mus musculus with 40 samples.

Results

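The transcripts of 10 genes of hepatic nitrogen disposal, namely the enzymes and a carrier of the urea cycle and the enzymes that feed ammonia into it, were followed across a TCDD dose response. The members were chosen by name: Cps1, Otc, Ass1, Asl and Arg1 as the 5 enzymes of the cycle, Nags as the maker of its activator, Slc25a15 as its ornithine carrier, and Gls2, Glud1 and Hal as enzymes that release ammonia or glutamate from amino acids. This choice was made with earlier results of these data known. Each of these 10 genes had 1 identifier among the 55359 in the count tables, and all 10 were among the 15373 genes that passed the filter on low counts, which asks for enough reads in as many libraries as 1 dose group holds.

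The livers came from male C57BL/6 mice that were gavaged every 4 days with sesame oil or with the dioxin TCDD in that oil, 7 gavages in all, over 28 days, from 30 to 58 days of age. TCDD is a persistent contaminant. It binds AhR, the aryl hydrocarbon receptor, which then acts in the nucleus as a transcription factor. The 40 libraries, 1 per mouse, formed 8 groups of 5: vehicle, 3 groups under 1 μg/kg (0.03, 0.1 and 0.3 μg/kg of TCDD), 2 groups at 1 and at 3 μg/kg, and 2 at 10 and at 30 μg/kg. The labels name no genetic change in any group, and each TCDD group was compared with the same 5 vehicle mice. Between 15.5 M and 21.0 M reads per library were counted in genes (median 17.5 M). Cyp1a1, the classical AhR target, was used to check that vehicle and TCDD labels were not mixed. It rose from between 0.979 and 2.33 CPM (read counts set to a common library size) in the vehicle libraries to between 109 and 237 CPM at 0.03 μg/kg. From 1 μg/kg upward its group means lay between 5767 and 6814 CPM without an order by dose, so it does not check the labels of the 4 highest doses against each other. The tissue label was checked against 8 hepatocyte markers, which together took 122037 to 146988 CPM in vehicle, with none of the 8 at 0 in any group. Library sizes for CPM were adjusted by TMM, the trimmed mean of M-values. Replicate numbers only name the libraries of a group.

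The urea cycle disposes of ammonia, mainly in periportal hepatocytes. In the mitochondrion Cps1 joins ammonia and bicarbonate to carbamoyl phosphate, for which it needs N-acetylglutamate made by Nags, and Otc passes the carbamoyl group to ornithine brought in by Slc25a15. The citrulline that leaves is converted in the cytosol by Ass1, which adds aspartate, and by Asl, which splits the product to arginine and fumarate, and Arg1 then releases urea and regenerates ornithine. Ammonia is supplied on the spot by Gls2, the liver glutaminase, by Glud1, which deaminates glutamate, and by Hal, which takes the first step of histidine breakdown.

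The AhR with its partner ARNT binds a core written GCGTG, so the 250 bases before the annotated start of each member were searched for these letters on either strand (CACGC on the other). Sequences from RefSeq (build GRCm38.p6) were matched for 6 of the 10 members, Otc, Ass1, Nags, Slc25a15, Glud1 and Hal. The core was found in 4 of these 6, with 2 copies in Ass1, 3 in Glud1, 1 in Hal and 1 in the first of the 2 starts of Slc25a15. Over all 32851 windows of this length, 28.2% hold it. The windows of 4 members are shown because they stand for the largest falls (Otc and Hal), a fall that already passed the p threshold at 1 μg/kg (Glud1) and a gene without a fall called at any dose (Nags). Each is written 5′ to 3′ on the gene's strand, with each core in capitals.
Otc, chrX:10252055-10252304, plus strand: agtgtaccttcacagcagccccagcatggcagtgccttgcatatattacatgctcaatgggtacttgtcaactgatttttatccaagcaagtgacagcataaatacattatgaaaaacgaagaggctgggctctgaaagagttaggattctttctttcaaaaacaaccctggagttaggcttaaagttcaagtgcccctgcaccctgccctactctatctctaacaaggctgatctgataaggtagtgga
Hal, chr10:93488518-93488767, plus strand: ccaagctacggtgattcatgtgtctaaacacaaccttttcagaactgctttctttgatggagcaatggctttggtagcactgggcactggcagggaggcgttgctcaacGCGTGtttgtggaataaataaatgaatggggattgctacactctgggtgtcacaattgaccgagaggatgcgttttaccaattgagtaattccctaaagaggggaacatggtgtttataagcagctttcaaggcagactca
Glud1, chr14:34310477-34310726, plus strand: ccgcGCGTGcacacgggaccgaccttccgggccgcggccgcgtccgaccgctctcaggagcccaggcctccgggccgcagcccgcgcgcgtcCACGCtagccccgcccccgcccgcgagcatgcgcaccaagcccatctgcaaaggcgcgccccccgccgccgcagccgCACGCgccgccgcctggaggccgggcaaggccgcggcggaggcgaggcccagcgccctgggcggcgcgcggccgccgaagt
Nags, chr11:102145263-102145512, plus strand: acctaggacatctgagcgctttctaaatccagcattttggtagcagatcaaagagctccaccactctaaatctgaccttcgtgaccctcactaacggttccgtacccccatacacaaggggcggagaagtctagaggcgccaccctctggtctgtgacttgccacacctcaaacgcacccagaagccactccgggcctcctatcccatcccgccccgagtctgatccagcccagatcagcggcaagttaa
Otc and Nags hold no core in these letters, Hal holds 1 at 141 bases before its start, and Glud1 holds 3, at 246, 158 and 81 bases. A match describes the letters and is neither a bound site nor a cause.

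Expression of 7 of the 10 genes fell at 30 μg/kg, and under TMM scaling no member was called higher at any dose. The enzymes of the 2 mitochondrial steps, Cps1 and Otc, and the ammonia suppliers Hal and Gls2 fell most, Ass1, Asl and Glud1 fell less, and Arg1, Slc25a15 and Nags did not reach the threshold. Calls needed a change of at least 1.5-fold and an adjusted p under 0.05, by the quasi-likelihood test of edgeR with p-values adjusted after Benjamini and Hochberg over all 15373 genes. The median log2 fold change of the 10 members at 30 μg/kg was -1.53, beside 0.03 over all genes tested. The 8 hepatocyte markers described below also had a median of -1.53, so a fall of this size is not particular to the members. The share of all genes called lower at this dose was 18.9%. Because the members were chosen with earlier results of these data known, the comparison with all genes only describes them.

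**Figure D1:**
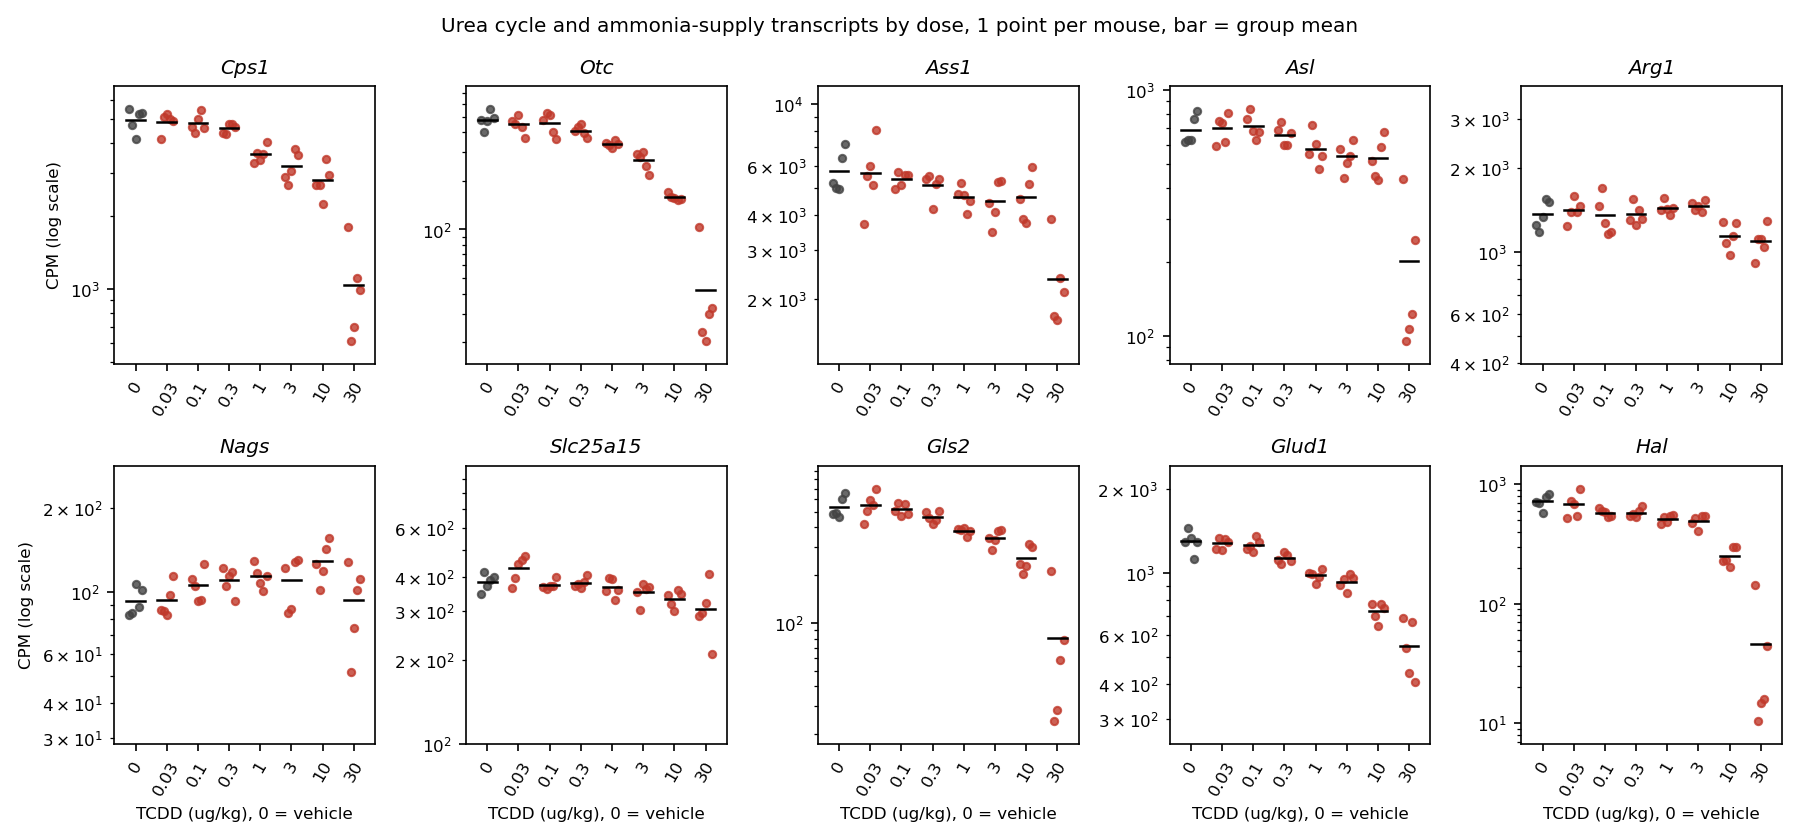
CPM of each gene (log scale, own range in each panel, at least 10-fold) against TCDD dose in μg/kg on an evenly spaced axis, 1 point per mouse (grey vehicle, red TCDD) and a bar at the group mean. Cps1, Otc, Gls2 and Glud1 step down from 1 or 3 μg/kg onward, Ass1 and Asl drop at 30 μg/kg, and the points of Arg1, Nags and Slc25a15 overlap the vehicle points at every dose.

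Cps1, the entry enzyme of the cycle, stood at 5497, 4712, 4146, 5254 and 5278 CPM in the 5 vehicle mice. At 10 μg/kg the values were 2689, 2677, 2245, 3427 and 2948 CPM, and at 30 μg/kg 1803, 609, 699, 1111 and 989 CPM. Every mouse at 10 and at 30 μg/kg lay under every vehicle mouse, and the groups at 10 and 30 μg/kg did not overlap each other. The log2 fold change from vehicle was -0.64 (SE 0.17, adjusted p = 0.00892) at 3 μg/kg, -0.83 (SE 0.17, adjusted p = 0.000161) at 10 μg/kg and -2.26 (SE 0.17, adjusted p = 1.23e-13) at 30 μg/kg. The call at 3 μg/kg was close to the fold threshold, and without replicate 2 of that group the log2 fold change was -0.58, just short of it.

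Otc, which makes citrulline, was called from 3 μg/kg upward. The vehicle mice held 473, 404, 472, 556 and 488 CPM. At 3 μg/kg they held 291, 282, 302, 248 and 217 CPM, at 10 μg/kg 170.0, 159, 158, 153 and 155 CPM. At 30 μg/kg the values were 104, 23.1, 20.3, 29.9 and 32.8 CPM. None of the groups at 3, 10 and 30 μg/kg overlapped vehicle or each other, and replicate 1 at 30 μg/kg was apart from the other 4 mice, which lay between 20.3 and 32.8 CPM. The log2 fold change was -0.84 (SE 0.23, adjusted p = 0.0145) at 3 μg/kg, -1.59 (SE 0.24, adjusted p = 1.54e-06) at 10 μg/kg and -3.51 (SE 0.25, adjusted p = 2.25e-14) at 30 μg/kg, or 11.4-fold lower. Without replicate 1 of the 30 μg/kg group the fall was 18.0-fold.

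The cytosolic enzymes Ass1 and Asl were called against vehicle only at 30 μg/kg. Ass1, which condenses citrulline with aspartate, held 5199, 5018, 4977, 6418 and 7234 CPM in vehicle and 3889, 1732, 1676, 2381 and 2125 CPM at 30 μg/kg. The groups did not overlap, and replicate 1 at 30 μg/kg again held the highest value. Its log2 fold change was -0.31 (SE 0.18, adjusted p = 0.202) at 10 μg/kg and -1.29 (SE 0.18, adjusted p = 1.69e-07) at 30 μg/kg. Asl, which yields arginine, held 612, 624.7, 626, 761 and 821 CPM in vehicle and 436, 95.02, 106, 123 and 245 CPM at 30 μg/kg. Here too every treated mouse lay under every vehicle mouse. The log2 fold change of Asl was -0.38 (SE 0.23, adjusted p = 0.232) at 10 μg/kg and -1.78 (SE 0.24, adjusted p = 6.36e-08) at 30 μg/kg.

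Arg1, which releases urea, was the cycle enzyme with the smallest difference. The vehicle mice held 1248, 1177, 1341, 1550.3 and 1513 CPM, those at 10 μg/kg 1279, 1075, 973, 1139 and 1267 CPM and those at 30 μg/kg 917, 1117, 1113, 1041 and 1294 CPM. All 5 mice at each of these doses lay under the vehicle mean, 3 of them under the lowest vehicle mouse at 10 μg/kg and 4 at 30 μg/kg. Arg1 at 30 μg/kg gave a log2 fold change of -0.32 (95% interval -0.53 to -0.10, adjusted p = 0.0108), which passed the p but not the fold threshold. Scaled to total counts alone, which shifted the median of all genes to 0.52, it was 0.18, so its direction rests on the scaling.

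Under TMM scaling Nags, whose product activates Cps1, moved up and then back. The vehicle mice held 82.5, 84.1, 107, 87.9 and 102 CPM, those at 10 μg/kg 126, 102, 119, 142 and 156 CPM and those at 30 μg/kg 128, 51.6, 74.1, 102 and 111 CPM. The groups overlapped, with 4 of the 5 mice at 10 μg/kg above the highest vehicle mouse and the widest spread at 30 μg/kg. For Nags the log2 fold change was 0.48 (SE 0.16, adjusted p = 0.0200) at 10 μg/kg, under the fold threshold, and 0.01 (95% interval -0.31 to 0.34, adjusted p = 0.957) at 30 μg/kg. Between 10 and 30 μg/kg it was -0.47 (SE 0.16, adjusted p = 0.0236), also under the fold threshold. Scaled to total counts alone, Nags was called higher at 10 μg/kg. At 30 μg/kg that scaling gave 0.48 (edgeR, adjusted p = 0.00217), under the fold threshold, where the median of all genes was 0.52. Its return at 30 μg/kg thus rests on the scaling. The span of Nags, introns included, overlaps that of Gm11586 on the opposite strand, and the counts keep no strand. Whether their exons overlap, where reads could not be assigned, was not checked.

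Slc25a15, the mitochondrial ornithine carrier, held 347, 415, 370.0, 389 and 399 CPM in vehicle and 289, 295, 321, 409.6 and 210.5 CPM at 30 μg/kg. Of the 5 treated mice 4 lay under the lowest vehicle mouse, and the other lay close to the highest. The log2 fold change of -0.33 (95% interval -0.54 to -0.12, adjusted p = 0.00712) was under the fold threshold, and it was 0.17 when scaled to total counts alone.

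Hal, the histidine ammonia-lyase, showed the largest fall of the 10. The vehicle mice held 714, 696, 580.2, 779 and 834 CPM and those at 10 μg/kg 226, 231, 203, 297 and 296 CPM. At 30 μg/kg the values were 143, 10.4, 14.9, 16.0 and 44.4 CPM. The 3 groups did not overlap, and within the 30 μg/kg group replicate 1 stood well above the other 4 mice. For Hal the log2 fold change was -0.54 (SE 0.35, adjusted p = 0.391) at 3 μg/kg, -1.52 (SE 0.36, adjusted p = 0.00104) at 10 μg/kg and -3.98 (SE 0.40, adjusted p = 7.20e-11) at 30 μg/kg, or 15.8-fold lower. Without replicate 1 of the 30 μg/kg group the fall was 33.7-fold.

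Gls2, the glutaminase of adult hepatocytes, held 487, 488, 463, 599 and 660.0 CPM in vehicle, 237, 204, 227, 313 and 302 CPM at 10 μg/kg and 214, 24.3, 28.6, 58.7 and 77.8 CPM at 30 μg/kg. The mice at 10 μg/kg lay under all vehicle mice, and the highest value at 30 μg/kg, that of replicate 1, reached into the range at 10 μg/kg. For Gls2 the log2 fold change was -1.07 (SE 0.29, adjusted p = 0.00421) at 10 μg/kg and -2.74 (SE 0.31, adjusted p = 1.18e-09) at 30 μg/kg, or 6.70-fold lower and 11.4-fold lower without replicate 1. The span of Gls2, introns included, overlaps that of Spryd4 on the opposite strand. Whether their exons overlap, where reads could not be assigned, was not checked.

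Glud1, the glutamate dehydrogenase, was the only member with an adjusted p under 0.05 as low as 1 μg/kg. It held 1291, 1447, 1337, 1126 and 1292 CPM in vehicle and 1003, 989, 913, 968 and 1031 CPM at 1 μg/kg. Its values were 775, 704, 648, 774 and 751 CPM at 10 μg/kg and 691, 538, 437, 668 and 407 CPM at 30 μg/kg. From 1 μg/kg upward no treated mouse reached the lowest vehicle mouse, and the same held for Cps1, Otc, Gls2 and Hal. At 1 μg/kg the 5 mice held 3295 to 4021 CPM of Cps1, 321 to 359 CPM of Otc, 346 to 396 CPM of Gls2 and 463 to 554 CPM of Hal. How many of all genes stay apart from vehicle in this way was not counted, so these ranges only describe the members. By the thresholds of the calls, 0 members were called at 1 μg/kg, beside 2.78% of all genes in either direction. The log2 fold change of Glud1 was -0.40 (SE 0.10, adjusted p = 0.0160) at 1 μg/kg and -0.48 (SE 0.10, adjusted p = 0.00156) at 3 μg/kg, both under the fold threshold. By adjusted p alone, without a fold threshold, Glud1 was the 1 member lower at 1 μg/kg, beside 1.13% of all genes. Its log2 fold change was -0.83 (SE 0.10, adjusted p = 6.13e-08) at 10 μg/kg and -1.24 (SE 0.10, adjusted p = 9.54e-13) at 30 μg/kg.

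Counted by dose, 0 members were called by edgeR at 0.03, 0.1, 0.3 and 1 μg/kg, where 0.0195%, 0.0976%, 0.468% and 2.78% of all genes were called in either direction. At an unadjusted p under 0.05 by edgeR the members numbered 0 at each of the 3 lowest doses and 3 at 1 μg/kg (Cps1, Otc and Glud1). The share of all genes at this unadjusted threshold was not counted, and the shares above do not apply to it. DESeq2 and limma also called 0 members at these 4 doses. At 3 μg/kg 2 members were called, Cps1 and Otc, both lower, beside 2.22% of all genes called lower. The 5 called at 10 μg/kg were Cps1, Otc, Gls2, Glud1 and Hal, all lower, beside 8.13% of all genes. Ass1 and Asl joined them at 30 μg/kg, which made 7 beside the 18.9% of all genes given above.

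The step from 10 to 30 μg/kg was tested as a contrast of these 2 groups in the fit of all 40 libraries, so the vehicle mice entered its estimate of spread but not the difference. In this comparison 6 members were called lower, beside 10.6% of all genes. The log2 fold changes between these doses were -2.46 (SE 0.37) for Hal, -1.92 (SE 0.24) for Otc, -1.67 (SE 0.30) for Gls2, -1.42 (SE 0.17) for Cps1, -1.40 (SE 0.24) for Asl and -0.98 (SE 0.18) for Ass1, with adjusted p of 5.68e-05 or less by edgeR. Glud1 was the exception among the genes called at 30 μg/kg, with -0.41 (SE 0.10, adjusted p = 0.00184) and thus under the fold threshold. Without replicate 1 of the 30 μg/kg group, Hal was at -3.55, Otc at -2.58 and Gls2 at -2.44, and Nags passed as a seventh gene. A linear slope over the ordered dose steps, with adjusted p under 0.05 and no fold threshold, was negative for 9 members, beside 26.1% of all genes. Nags had no such slope (0.03 log2 units per step, adjusted p = 0.130). Scaled to total counts alone, 7 members kept a negative slope, Arg1 and Slc25a15 had none that passed, and that of Nags passed upward. With no filter on low counts, and in the lower title numbers alone, 8 slopes were negative and that of Arg1 did not pass.

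**Figure D2:**
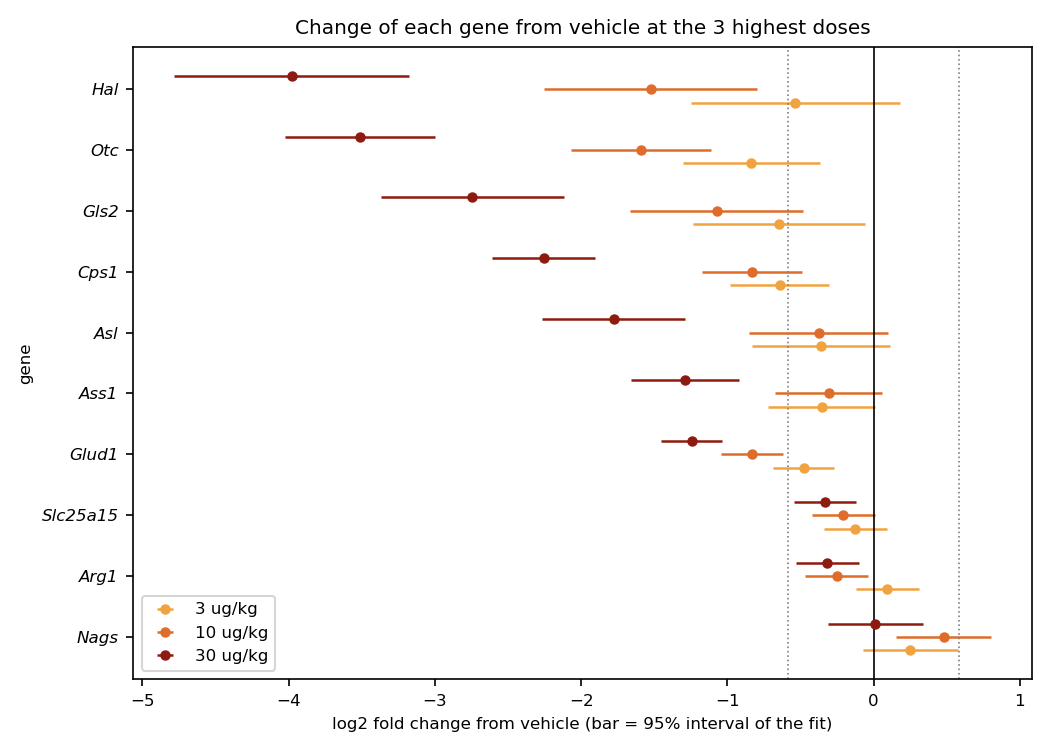
Log2 fold change from vehicle of each gene at 3, 10 and 30 μg/kg (points), with the 95% interval of the edgeR fit (bars) and the 1.5-fold threshold (dotted lines). At 30 μg/kg the intervals of Hal and Otc lie under -2.99, and those of Slc25a15, Arg1 and Nags lie between -0.54 and 0.34.

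The titles carry running numbers whose meaning the labels do not give, and every group had libraries numbered up to 27 and from 28. Within the lower numbers (2 mice at 30 μg/kg, 3 vehicle) the log2 fold change was -3.13 for Hal, -2.84 for Otc, -2.03 for Gls2, -2.004 for Cps1, -1.24 for Asl, -1.16 for Glud1 and -0.87 for Ass1. Within the higher numbers (3 against 2) these were -5.03, -4.26, -3.54, -2.52, -2.35, -1.29 and -1.76 in the same order. All 7 passed both thresholds within each set. Among the lower numbers alone only Glud1 and Otc were called at 10 μg/kg, and 0 of the 6 genes called between 10 and 30 μg/kg passed there, all 6 being lower in direction, with log2 fold changes from -0.59 (Ass1) to -1.58 (Hal).

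Since the 30 μg/kg livers also differed in their cell markers, the lists of markers are given beside these falls. Of all genes, 23.2% were called higher and 18.9% lower at this dose. Of 8 hepatocyte markers 7 were called lower at 30 μg/kg (median log2 fold change -1.53), and their summed level fell to between 38570 and 82551 CPM. Of 8 macrophage markers 8 were called higher, and their sum went from between 167 and 234 CPM in vehicle to between 583 and 1562 CPM. Of 7 stellate and fibroblast markers 6 were higher, with sums of 172 to 290 CPM in vehicle and 613 to 1395 CPM at 30 μg/kg. Called higher were also 4 of 6 endothelial, 4 of 5 cholangiocyte, 4 of 5 lymphocyte and 3 of 3 tested neutrophil markers, while the cholangiocyte marker Sox9 was called lower and the neutrophil marker Ly6g was too low to test. Replicate 1 of the 30 μg/kg group, which held the highest Cps1, Otc, Ass1, Asl, Gls2, Glud1 and Hal, also held the highest hepatocyte sum of its group and the lowest macrophage and stellate sums. This mouse held the highest Nags (128 CPM) but the lowest Arg1 (917 CPM) of its group. Its Slc25a15, 289 CPM, lay within the group's range of 210 to 410 CPM. In a bulk liver sample fewer hepatocytes and less RNA per hepatocyte cannot be told apart.

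Ratios within a library do not depend on its scaling, and the members did not fall in proportion. Each gene was divided by Cps1 within each library (log2, 0.5 added to each count), and vehicle and 30 μg/kg were compared by an exact permutation test, 2-sided, adjusted over the 9 ratios. With 5 mice against 5 the smallest possible p is 0.00794, and 7 of the 9 ratios reached it (adjusted p = 0.0102). Cps1 itself had a log2 fold change of -2.26, so a gene that did not change also gives a higher ratio. The share of all genes whose ratio to Cps1 differs was not counted. Relative to Cps1, Hal fell by 2.34 and Otc by 1.43 log2 units, lower than every vehicle mouse in 5 of 5 mice. Relative to Cps1, Nags was higher by 2.31, Arg1 by 2.04, Slc25a15 by 2.00, Glud1 by 1.08 and Ass1 by 1.01 log2 units, above every vehicle mouse in 5 of 5. Gls2 was at -0.84 (exact permutation test, adjusted p = 0.0536, under every vehicle mouse in 4 of 5) and Asl at 0.33 (exact permutation test, adjusted p = 0.198).

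**Figure D3:**
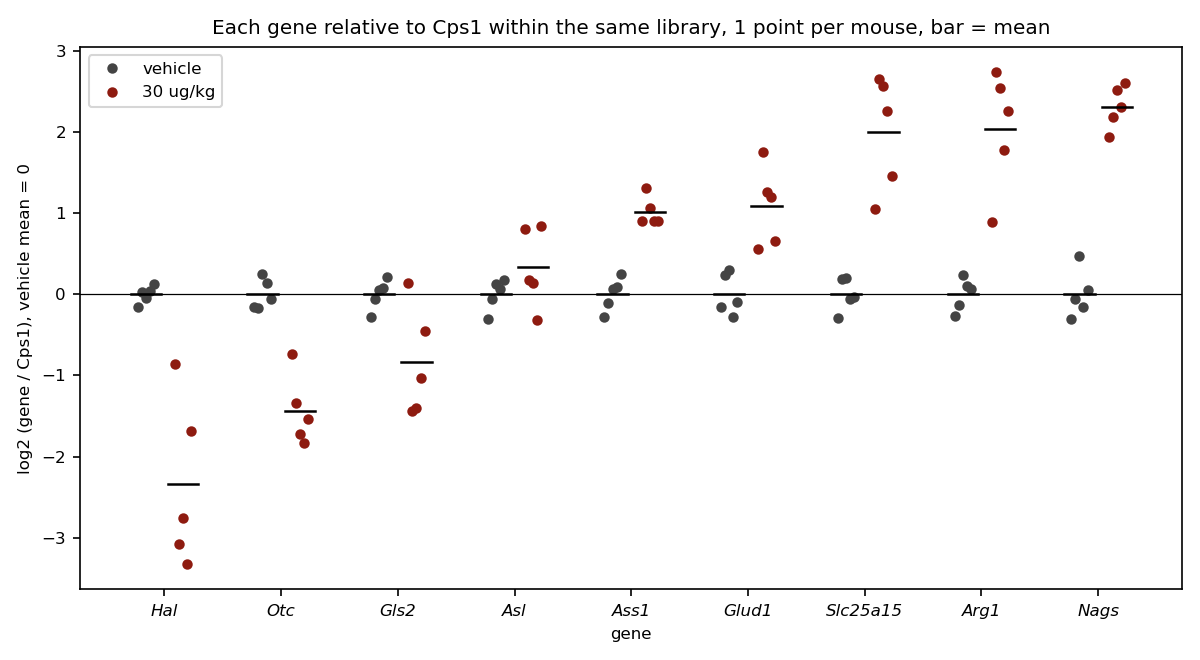
Log2 ratio of each gene to Cps1 within the same library, with the vehicle mean set to 0, for 5 vehicle mice (grey) and 5 mice at 30 μg/kg (dark red), with bars at the means. Hal and Otc lie under the vehicle points, Ass1, Glud1, Slc25a15, Arg1 and Nags lie above them, and Gls2 and Asl overlap them.

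With the sum of the 8 hepatocyte markers as the denominator, a choice made after the data were seen, 8 of 10 ratios differed at 30 μg/kg (exact permutation test, adjusted over 10). The median of this sum was 129176 CPM in vehicle and 53688 CPM at 30 μg/kg, so an unchanged gene also gives a higher ratio. Single markers ran from -3.20 to -0.32 in log2 fold change, so the sum is no even reference for hepatocytes. The share of all genes whose ratio differs was not counted. Relative to the sum of markers, Hal was lower with a difference of -3.43 log2 units, Otc with -2.52, Gls2 with -1.93, Cps1 with -1.09 and Asl with -0.76. Nags was higher with 1.22, Arg1 with 0.95 and Slc25a15 with 0.91. Ass1 (-0.08, exact permutation test, adjusted p = 0.723) and Glud1 (-0.01, exact permutation test, adjusted p = 0.952) did not pass, and their treated and vehicle ranges overlapped. The part of a changed cell makeup in the falls was not tested beyond these ratios.

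The 5 cycle enzymes together took 1.23% ± 0.118 (SD, n = 5) of all counts in genes in vehicle and 1.04% ± 0.0333 at 1 μg/kg. Their share was 0.973% ± 0.0982 at 3 μg/kg, 0.989% ± 0.0789 at 10 μg/kg and 0.610% ± 0.153 at 30 μg/kg. It did not fall from 3 to 10 μg/kg. Cps1 alone went from 0.462% ± 0.0530 to 0.133% ± 0.0535. At 30 μg/kg the shares ran from 0.494% to 0.871% and in vehicle from 1.07% to 1.34%, so the groups did not overlap.

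Levels of different genes were compared per kilobase of all annotated exons. In vehicle Ass1 led with 2390 ± 419 CPM per kb (SD, n = 5), before Cps1 with 896 ± 98.5, Arg1 with 613 ± 73.1 and Glud1 with 308 ± 27.4, and none of these 4 overlapped its neighbour. Gls2, Asl, Hal and Otc followed between 155 and 113 CPM per kb with overlapping ranges, then Slc25a15 with 68.2 ± 4.70 and Nags with 32.6 ± 3.87. With the length of the main transcript alone, Cps1 (896) and Arg1 (925) changed places and could not be ordered. By that length Asl (285) also came before Gls2 (210), with overlapping ranges. Otc (206, range 174 to 240) came before Hal (135, range 109 to 157) without overlap, so the order of these genes depends on the length used. Ass1 was still first at 30 μg/kg with 978 ± 374 CPM per kb and Arg1 was second with 492 ± 61.5, ahead of Cps1 with 188 ± 85.0. Otc, at 9.90 ± 8.23, and Hal, at 8.25 ± 10.1, were the last, below Nags at 32.9 ± 10.7, although their ranges overlapped those next to them.

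Among 9307 genes with a mean of at least 100 counts, genes near in pattern to Cps1 over the log2 CPM of all 40 libraries were Pygl (Pearson r = 0.992), Uox (0.979), Kynu (0.977) and the member Gls2 (0.977), all of them within the 5 highest r. Otc ranked 29th (0.966), Hal 54th (0.960), Asl 236th (0.933), Glud1 353rd (0.919) and Ass1 408th (0.912), whereas Slc25a15 (0.642), Arg1 (0.503) and Nags (0.250) ranked 2100th, 2814th and 4029th. The 40 libraries share their dose groups and the scaling of their depth, so r is a description of a common dose profile.

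Beyond the 10 members, 71 companion genes in 7 lists were followed at 30 μg/kg. Of the 68 tested, 47 were called, 12 higher and 35 lower, beside 42.1% of all genes called in either direction, 23.2% higher and 18.9% lower. Values in the following paragraphs are log2 fold changes against vehicle with the SE of the fit, and medians are medians of these.

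Among the isoenzymes used outside hepatocytes, Cad, which makes carbamoyl phosphate for pyrimidines, was at -0.41 (SE 0.24) and not called, with 0.07 when scaled to total counts alone. Arg2, the mitochondrial arginase, had at most 18 counts in any library and was not tested, like Slc25a2.

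Of 19 genes that supply ammonia or aspartate from amino acids, 16 were called lower and 1 higher, beside 18.9% and 23.2% of all genes. Their median was -1.37, beside 0.03 over all genes. The list was chosen with earlier results of these data known. Hepatocyte markers also fell, with 7 of 8 called lower and a median of -1.53. Among the largest falls of the list were the next steps of histidine breakdown after Hal, Amdhd1 at -2.93 (SE 0.16) and Uroc1 at -2.91 (SE 0.29). Sds, the serine dehydratase, was at -2.90 (SE 0.31). Uroc1 was at -3.61 without replicate 1 of the 30 μg/kg group. The 1 gene higher was Asrgl1, an asparaginase, at 0.78 (SE 0.14).

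Of 14 partners in bicarbonate supply, transport and acylation, 6 were called lower and 3 higher (median -0.31), beside 18.9% and 23.2% of all genes. Car5a, the mitochondrial carbonic anhydrase that provides bicarbonate to Cps1, was at -2.35 (SE 0.33), and at -3.27 without replicate 1. The mitochondrial deacylases Sirt3, at -1.45 (SE 0.14), and Sirt5, at -1.24 (SE 0.14), were lower as well. Slc3a2, the heavy chain of amino acid exchangers, rose by 2.12 (SE 0.13) on the log2 scale and Slc7a7, one of its light chains, by 1.18 (SE 0.19). Slc25a22, a glutamate carrier, was at 0.60 (SE 0.16), a call lost when any of 5 libraries was left out (vehicle replicates 1 and 4, 30 μg/kg replicates 2, 3 and 4), with 0.51 as the lowest value, and lost with limma and with title-number covariates.

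Of 10 tested genes of arginine and ornithine use, 3 were called higher and 2 lower (median 0.42), beside 23.2% and 18.9% of all genes. These counts are near the shares of all genes. The spermidine acetyltransferase Sat1 rose by 1.01 (SE 0.13) on the log2 scale, the endothelial nitric oxide synthase Nos3 by 1.09 (SE 0.27) and Gatm, the first step from arginine to creatine, by 0.76 (SE 0.19). Gamt, the second step, was at -1.997 (SE 0.38), or -2.96 without replicate 1 of the 30 μg/kg group, and Agmat, an agmatinase, at -1.48 (SE 0.14). Nos2 was too low to test.

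In the pericentral glutamine list 2 of 4 genes were called higher and 1 lower (median 0.46), beside 23.2% and 18.9% of all genes. Glul, the glutamine synthetase that takes up ammonia left by the cycle, was at -1.76 (SE 0.26), and at -2.39 without replicate 1. Slc1a4, a neutral amino acid carrier, rose by 3.18 (SE 0.19) on the log2 scale. The glutamate carrier Slc1a2 was at 0.66 (SE 0.16), a call lost without vehicle replicate 1 (0.56) and without replicate 1 of the 30 μg/kg group (0.48). The call was also lost with 1 strand column alone (0.58), although the strand columns split the counts evenly.

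Of 12 regulators of these genes, 7 were called lower and 1 higher (median -0.86), beside 18.9% and 23.2% of all genes. Onecut1 was at -3.05 (SE 0.77), or -3.99 without replicate 1 of the 30 μg/kg group, Cebpa, a hepatocyte factor that drives cycle genes, at -1.65 (SE 0.16), and Gcgr, the glucagon receptor, at -1.36 (SE 0.11). Cebpb was called higher at 0.89 (SE 0.37), a call lost with DESeq2, with limma and when any of 6 libraries was left out (vehicle replicates 1, 3 and 4, 30 μg/kg replicates 2, 4 and 5), with 0.73 as the lowest value.

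Among 7 other periportal genes 3 were called lower and 1 higher (median -0.30), beside 18.9% and 23.2% of all genes. Pck1, the gluconeogenic carboxykinase, was at -2.21 (SE 0.43), Apof, an apolipoprotein, at -2.06 (SE 0.21) and Cyp2f2, a classical periportal cytochrome P450, at -1.75 (SE 0.25). Aldh1b1, an aldehyde dehydrogenase, was at 0.69 (SE 0.24), a call lost without replicate 1 of the 30 μg/kg group (0.34) or without vehicle replicate 3 (0.58), and with limma or a fit of the 2 groups alone. Within the lower title numbers alone the calls of Gamt, Slc7a7, Slc25a22, Cebpb, Onecut1 and Pck1 were lost, and within the higher numbers alone those of Nos3, Slc1a2, Cebpb and Aldh1b1, each with its direction kept.

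**Figure D4:**
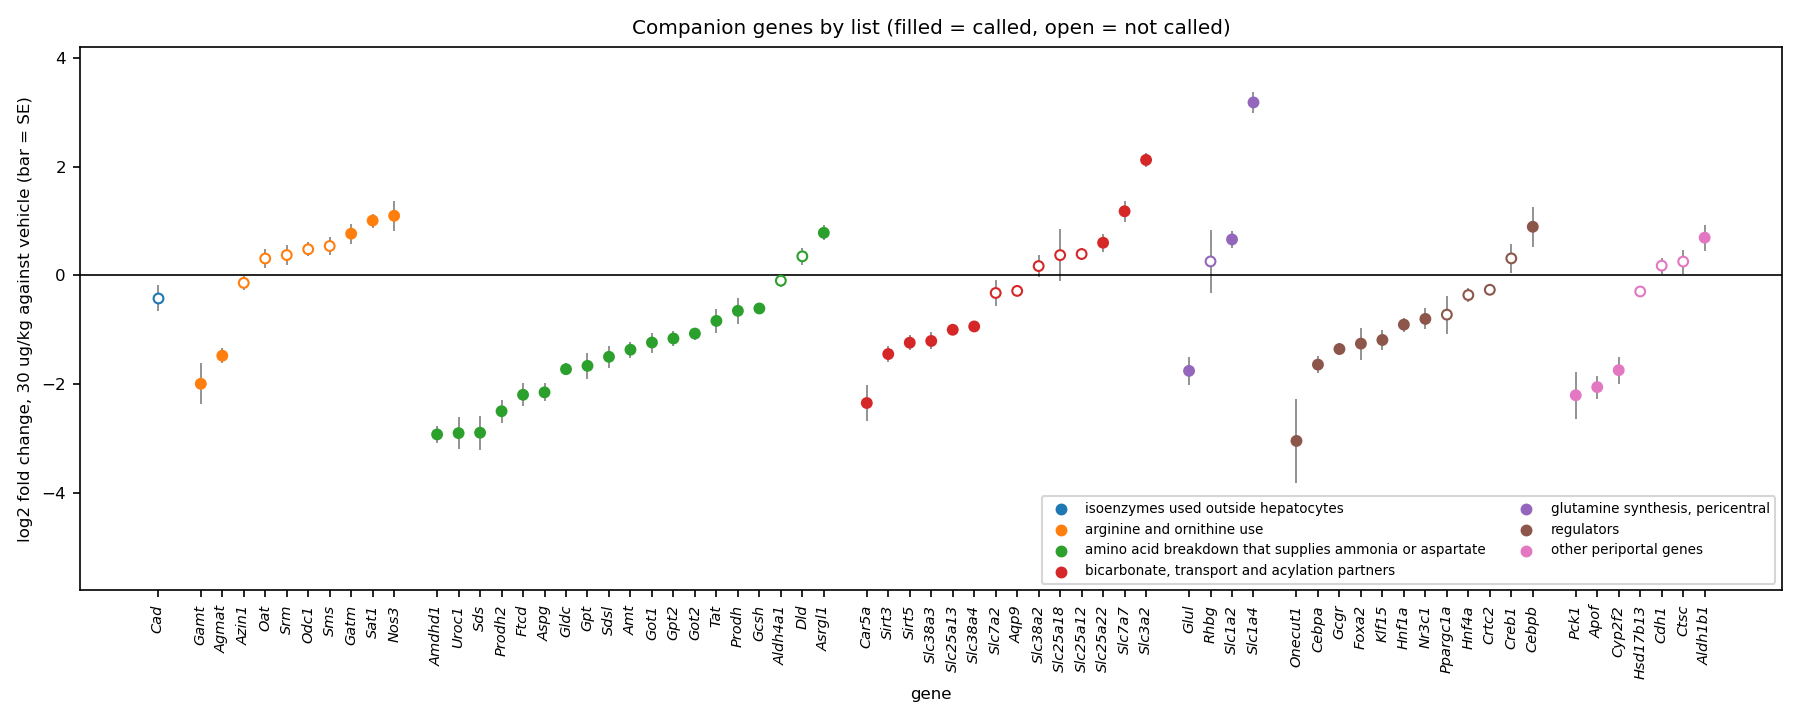
Log2 fold change at 30 μg/kg against vehicle of 67 of the tested companion genes, grouped by list and ordered within it, with the SE of the fit (bars), filled where called and open where not. In the list of amino acid breakdown 16 of 19 genes are called lower and 1 higher, beside 18.9% and 23.2% of all genes. The other lists hold calls on both sides or few calls.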

How the data were processed

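RNA-Seq libraries of 40 mouse livers were analysed. Per the submitters' processing notes the reads were handled with FastQC 0.11.7, Trimmomatic 0.39 and STAR 2.7.3a. These notes name the builds GRCm39 and mm10 without a role, and the gene annotation was not given in the sources used here. The authors deposited whole-number counts per gene for each library, as STAR writes them, unstranded and for each strand. The strand columns split the counts evenly (50.0% to 50.3%), so the unstranded column was used. Rows of reads in no gene, in several genes or in several places stayed out of library sizes (reads in genes were 71.3% to 80.8% of all). The authors also deposited a normalized log2 table, which entered limma as it was.

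The 10 members and the companion and marker lists were chosen with earlier results of these data known. Groups came from the sample labels. In R 4.3.3, edgeR 4.0.16 fitted 1 mean per dose to all 40 libraries after filterByExpr (minimum count 10, minimum total 15) and TMM scaling, and calls needed an adjusted p under 0.05 and a fold of at least 1.5. The study's empirical Bayes posterior probability was replaced by this test. On counts simulated for the comparison at 30 μg/kg the test recovered large planted changes and a minority of those set at the fold threshold. The simulation gave every gene the same spread, changed few genes and scored adjusted p alone, without the fold threshold. It therefore does not measure how well the calls in these data were made. Named were all members, Cyp1a1, genes among the 5 nearest to Cps1, isoenzymes such as Cad and Arg2, and the 3 largest called rises and falls of each companion list, apart from items that are not reported here. Exon lengths came from GENCODE M21, through which 52083 of 55359 identifiers were named. Alternatives were DESeq2 1.42.0, limma 3.58.1, other scalings, filters, covariates and columns, each set of title numbers alone, no fold threshold and leaving out each library. Depth sets counting error only, since reads carry no molecular identifiers.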

Additional observations from a re-analysis of the deposited data

Results flagged for a closer look

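In 5 of 80 gene-by-group sets of 5 mice, 1 mouse stood farther from the nearest of the others than Dixon's limit for 5 values allows (a gap over 0.71 of the range), and chance alone flags about 1 in 20. Of these 5, 3 belong to replicate 1 of the 30 μg/kg group, which held 104 CPM of Otc (next mouse 32.8), 214 CPM of Gls2 (next 77.8) and 143 CPM of Hal (next 44.4). Replicate 3 of the 0.3 μg/kg group held the lowest Ass1 of its group, 4220.2 CPM (next 5171). Replicate 5 of the 0.1 μg/kg group held the highest Slc25a15, 397 CPM (next 371).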

How the results depend on the processing

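No paired analysis was possible because the replicate numbers are accession order and the labels carry no number shared between groups. The members called at 30 μg/kg numbered 7 under every alternative with the 1.5-fold threshold. With no fold threshold 1 member was called at 1 μg/kg (Glud1, beside 1.13% of all genes lower). At 3 μg/kg 1 member was called in place of 2 with total-count scaling, in the higher title numbers alone and without replicate 2 of that group (Otc in each), and 1 in the lower title numbers alone (Glud1, with Cps1 and Otc both lost). With only the groups compared 3 were called there (Cps1, Gls2 and Otc). At 10 μg/kg 2 in place of 5 were called in the lower title numbers alone, and 0 in place of 6 between 10 and 30 μg/kg. The ratios to Cps1 gave 0 of 9 in either set of title numbers, where 2 mice against 3 cannot give an exact p under 0.05, so this says nothing of their stability. With all reads as the denominator the vehicle share of the 5 cycle enzymes was 0.954%. Directions turned with total-count scaling for Arg1 (0.18), Slc25a15 (0.17) and Cad (0.065), relative to an all-gene median of 0.52, under which 6402 genes were called higher and 1559 lower at 30 μg/kg, beside 3567 and 2909. For Nags, at 0.01, the sign turned with the title-number set as covariate (-0.0078) and with place in the triple added (-0.094). It also turned in each set alone (-0.038 and -0.011) and with limma (-0.041). For this gene leaving out single libraries gave -0.13 to 0.15. Total-count scaling gave Nags 0.48 (edgeR, adjusted p = 0.00217), under the fold threshold. Over single libraries left out, members called ranged from 1 to 2 at 3 μg/kg, 5 to 5 at 10 μg/kg, 7 to 7 at 30 μg/kg, 6 to 7 between 10 and 30 μg/kg and 0 to 0 at each lower dose, slopes from 9 to 10 (Nags, upward, without replicate 2 at 30 μg/kg), ratios from 7 to 8, companions from 44 to 48, and the cycle share from 0.545% to 0.639% at 30 μg/kg and from 1.2% to 1.27% in vehicle. The causes of these shifts were not tested.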
